A study of Mus musculus with 4 samples.

Results

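The genes described are 36 interferon-stimulated genes, a list of named genes whose transcription is known to respond to interferon. The list was fixed by gene symbol and used no expression value, though it was chosen with earlier results of these data known. All 36 symbols were found among the 45706 genes of the table, each with a single entry. RNA sequencing was done on gonadal white adipose tissue (gWAT), a visceral fat depot, of 2 mice on high-fat diet that received canagliflozin (HFD+Cana) and of 2 mice on high-fat diet alone (HFD). All 4 mice carried the strain label C57B6/N and were fed high-fat diet, which the labels give as lasting 2 months. The study's methods give male C57BL/6 mice, and the labels give no age. Canagliflozin, an inhibitor of the kidney glucose transporter SGLT2, was mixed into the food at 0.03% by weight for 7 days. No mouse on normal chow is among the 4 samples, so the comparison asks how RNA levels differ after a short course of the drug in mice kept on the same diet.

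Type I interferons bind the receptor IFNAR1 and IFNAR2, whose kinases JAK1 and TYK2 activate STAT factors, STAT2 among them. With IRF9 these form the complex ISGF3, which binds the interferon-stimulated response element (ISRE) in promoters. Type II interferon acts through its own receptor and on the gamma-activated site (GAS). In obese adipose tissue, such genes can be expressed by adipocytes as well as by macrophages, endothelial cells and lymphocytes.

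Promoter windows of 250 bases before to 50 bases after the transcription start were taken from RefSeq (GRCm38.p6) and matched 27 of the 36 genes. Usp18, Oas2, Mx1, Mx2, Parp9, Parp14, Rtp4, Zbp1 and Ifi27l2a were not matched. The core of the ISRE was searched as a pair of GAAA blocks with any 2 bases between them, on both strands, with overlapping matches allowed. It stood in the windows of 15 of the 27 genes (55.6%), against 3.99% of the 27025 genes with a window and 3.44% of all 32851 windows. The GAS, searched as TTCNNNGAA on both strands, stood in the windows of 7 of the 27 genes (25.9%), against 9.55% of all genes and 8.3% of all windows. In Bst2 a GAS match overlapped an ISRE match. A match describes the letters only and does not show binding. The windows below are written 5′ to 3′ on the strand of the gene, with each ISRE core in capitals. They are shown because they span the range of the list, with Isg15 and the Ifit3 pair as textbook targets, Rsad2 and Gbp2 as genes with a match and lower levels in HFD+Cana, and Lgals3bp and Oasl2 as the genes at either end of the fold changes. The window of Isg15 (chr4:156200769-156201068, minus strand) held 3 overlapping cores that begin 78, 72 and 66 bases before the start. The windows of Ifit3 (chr19:34583279-34583578, plus strand) and Ifit3b (chr19:34607707-34608006, plus strand) held 2 cores each, at 156 and 122 bases before the start of Ifit3 and at 188 and 154 bases before the start of Ifit3b. Over the 260 bases in which these 2 windows align, 258 were identical (99.2%). The window of Rsad2 (chr12:26456403-26456702, minus strand) held 1 core at 120 bases before the start, and that of Gbp2 (chr3:142620413-142620712, plus strand) held 1 core at 59 bases. The windows of Lgals3bp (chr11:118401910-118402209, minus strand) and Oasl2 (chr5:114896684-114896983, plus strand) held none, which says only that these letters are not in the windows.
Isg15: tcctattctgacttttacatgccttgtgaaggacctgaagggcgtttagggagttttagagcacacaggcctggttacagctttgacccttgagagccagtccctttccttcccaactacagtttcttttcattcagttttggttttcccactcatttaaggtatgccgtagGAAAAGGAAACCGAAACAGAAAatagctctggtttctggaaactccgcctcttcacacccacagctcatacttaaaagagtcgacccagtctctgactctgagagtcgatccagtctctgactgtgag
Ifit3: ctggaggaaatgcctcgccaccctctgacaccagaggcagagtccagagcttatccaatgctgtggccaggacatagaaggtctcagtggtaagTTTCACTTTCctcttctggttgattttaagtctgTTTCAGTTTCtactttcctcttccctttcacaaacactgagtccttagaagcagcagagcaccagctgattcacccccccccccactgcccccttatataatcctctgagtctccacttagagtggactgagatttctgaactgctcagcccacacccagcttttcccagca
Ifit3b: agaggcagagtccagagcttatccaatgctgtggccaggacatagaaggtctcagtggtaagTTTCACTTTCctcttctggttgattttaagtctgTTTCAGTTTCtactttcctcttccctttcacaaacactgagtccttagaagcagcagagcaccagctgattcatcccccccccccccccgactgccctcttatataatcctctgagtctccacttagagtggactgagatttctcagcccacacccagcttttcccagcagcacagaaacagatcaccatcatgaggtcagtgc
Rsad2: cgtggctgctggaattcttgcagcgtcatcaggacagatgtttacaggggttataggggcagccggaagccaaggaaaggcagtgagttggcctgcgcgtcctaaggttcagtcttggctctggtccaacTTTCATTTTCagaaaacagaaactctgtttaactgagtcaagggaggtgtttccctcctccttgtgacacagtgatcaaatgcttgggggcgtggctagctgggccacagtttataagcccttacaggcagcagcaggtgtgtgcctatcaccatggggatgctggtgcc
Gbp2: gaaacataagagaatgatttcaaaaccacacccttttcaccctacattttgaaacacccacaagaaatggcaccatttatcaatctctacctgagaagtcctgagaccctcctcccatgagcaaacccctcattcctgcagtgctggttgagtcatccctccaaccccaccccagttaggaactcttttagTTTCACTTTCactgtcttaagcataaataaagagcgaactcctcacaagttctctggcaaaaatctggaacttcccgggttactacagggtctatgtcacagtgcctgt
Lgals3bp: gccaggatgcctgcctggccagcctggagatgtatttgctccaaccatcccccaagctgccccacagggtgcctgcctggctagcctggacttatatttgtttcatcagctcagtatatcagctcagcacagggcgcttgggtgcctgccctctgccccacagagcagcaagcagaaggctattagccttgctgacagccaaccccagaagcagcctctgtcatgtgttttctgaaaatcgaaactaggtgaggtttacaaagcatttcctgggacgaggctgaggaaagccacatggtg
Oasl2: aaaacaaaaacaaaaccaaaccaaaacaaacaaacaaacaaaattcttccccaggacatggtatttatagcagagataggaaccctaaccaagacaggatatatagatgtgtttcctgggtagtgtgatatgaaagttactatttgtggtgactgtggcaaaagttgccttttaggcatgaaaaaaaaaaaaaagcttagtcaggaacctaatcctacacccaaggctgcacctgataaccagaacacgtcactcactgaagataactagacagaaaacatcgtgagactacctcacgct

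Expression was measured as TPM, the estimated reads per transcript length with every sample scaled to 1000000 in all. The number of reads behind a TPM value cannot be recovered, so depth is unknown here and counting intervals are not given. The level of the list was that of an average expressed gene, with a median of 15.2 TPM over the 36 genes and of 15.7 TPM over the 13788 genes that averaged 1 TPM or more. Of the 36 genes, 23 had a mean of 10 to under 100 TPM, 9 of 1 to under 10 TPM and 3 of at least 100 TPM. Oas3 was under 1 TPM and did not enter the test. Ifi27l2a, a small mitochondrial protein of the ISG12 family, held most of the list's RNA. Its level was 5168.5 and 3767 TPM in HFD+Cana mice and 4046 and 4607 TPM in HFD mice. That was 82.9% and 78.6% of the summed TPM of the list in HFD+Cana and 75.6% and 79.7% in HFD. The Ifi27l2a levels overlapped between the groups, and the summed TPM of the list therefore mostly follows a gene that did not separate them. Without Ifi27l2a the list summed to 1067 and 1026 TPM in HFD+Cana and to 1307 and 1173 TPM in HFD. Without Lgals3bp as well it summed to 723 and 684 TPM in HFD+Cana and to 784 and 708 TPM in HFD, where the groups overlap.

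**Figure D1:**
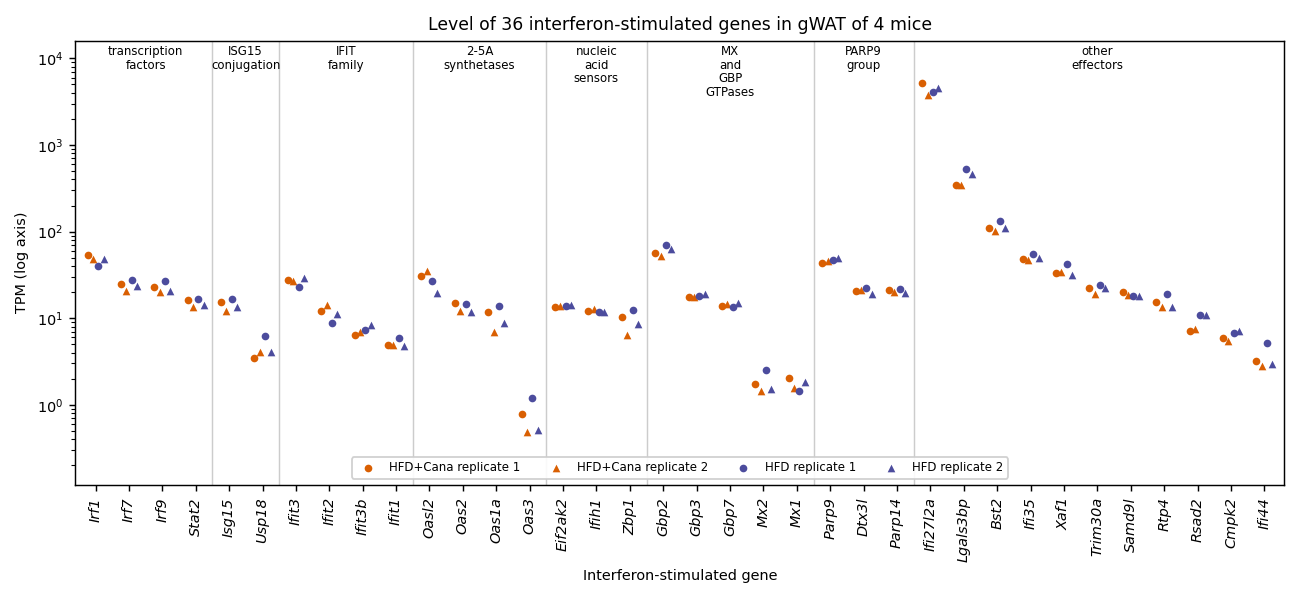
Level in TPM (log axis) of each of the 36 interferon-stimulated genes, grouped by role, in gWAT of 2 HFD+Cana mice and 2 HFD mice. Each point is 1 mouse. Ifi27l2a lies at 3767 to 5168.5 TPM, above every other gene of the list, and for most genes the 4 points lie close together on this axis.

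HFD+Cana mice were set against HFD mice in limma. Every fold change below is on the scale of log2(TPM + 1), which makes the change of low genes look smaller than it is. None of the 35 genes tested passed an adjusted p of 0.05 in limma with Benjamini-Hochberg adjustment, in either direction, and the smallest adjusted p was 0.262. Over all 13788 genes tested, 0.0435% passed as higher in HFD+Cana and 0% as lower. At an unadjusted limma p under 0.05, 3 genes of the list were lower in HFD+Cana (8.57%, against 5.45% of all genes tested) and 1 was higher (2.86%, against 5.32%). With 2 mice against 2, an exact permutation test of a single gene cannot give a p under 0.333. In 12 of the 36 genes both HFD+Cana values lay under both HFD values (33.3%, against 19.8% of all genes tested), and in 4 both were above (11.1%, against 24.3%). In the other 20 the groups overlapped. The contrast with all genes depended on the scaling. Under quantile normalization 12 genes lay below, against 22.4% of all genes. Under median-of-ratios scaling 10 did, against 23.2%, and with mitochondrial genes removed 10 did, against 19%. The count above was 4 in each, against 21.2%, 20.7% and 25.4% of all genes. The fold change was below 0 in 25 of the 36 genes (69.4%, against 46.2% of all genes). Its median was -0.13 on the log2 scale, against 0.019 over all genes tested. The differences were small: 27 genes lay within 0.25 of 0 on the log2 scale (75%, against 76% of all genes), 7 lay below -0.25 (10.8% of all genes did) and 2 lay above 0.25 (13.2% of all genes did). The standard error of a fold change ran from 0.09 to 0.31, with a median of 0.14. In 10 genes (27.8%, against 31.7% of all genes) the difference between the groups was larger than the difference between mice within either group.

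The lowest fold changes in HFD+Cana belonged to Lgals3bp and Rsad2. Lgals3bp, a secreted glycoprotein that binds galectin-3 (chr11:118392751-118402092, minus strand), measured 345 and 342 TPM in HFD+Cana mice against 523 and 465 TPM in HFD mice. The 2 HFD+Cana mice were close to each other and clearly under both HFD mice, and the HFD+Cana mean was 0.695 of the HFD mean. Its log2 fold change was -0.52 ± 0.10 (SE, n = 2 each; 95% confidence interval -0.78 to -0.26), with an adjusted p of 0.262 in limma. Rsad2 encodes viperin, an enzyme that makes a chain terminator of viral RNA synthesis (chr12:26442746-26456452, minus strand). It measured 7.19 and 7.48 TPM in HFD+Cana mice against 10.9 and 10.98 TPM in HFD mice, with tight replicates in both groups. The HFD+Cana mean was 0.671 of the HFD mean, and the log2 fold change was -0.52 ± 0.10 (SE; interval -0.78 to -0.26), with an adjusted p of 0.262 in limma. Without any 1 mouse the log2 fold change ran from -0.61 to -0.44 for Lgals3bp and from -0.54 to -0.49 for Rsad2. Cmpk2, a mitochondrial nucleotide kinase encoded beside Rsad2 in the opposite direction, measured 5.88 and 5.47 TPM in HFD+Cana mice against 6.82 and 7.04 TPM in HFD mice. It was likewise below both HFD mice, by a smaller amount (log2 fold change -0.25 ± 0.11, adjusted p = 0.503 in limma).

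**Figure D2:**
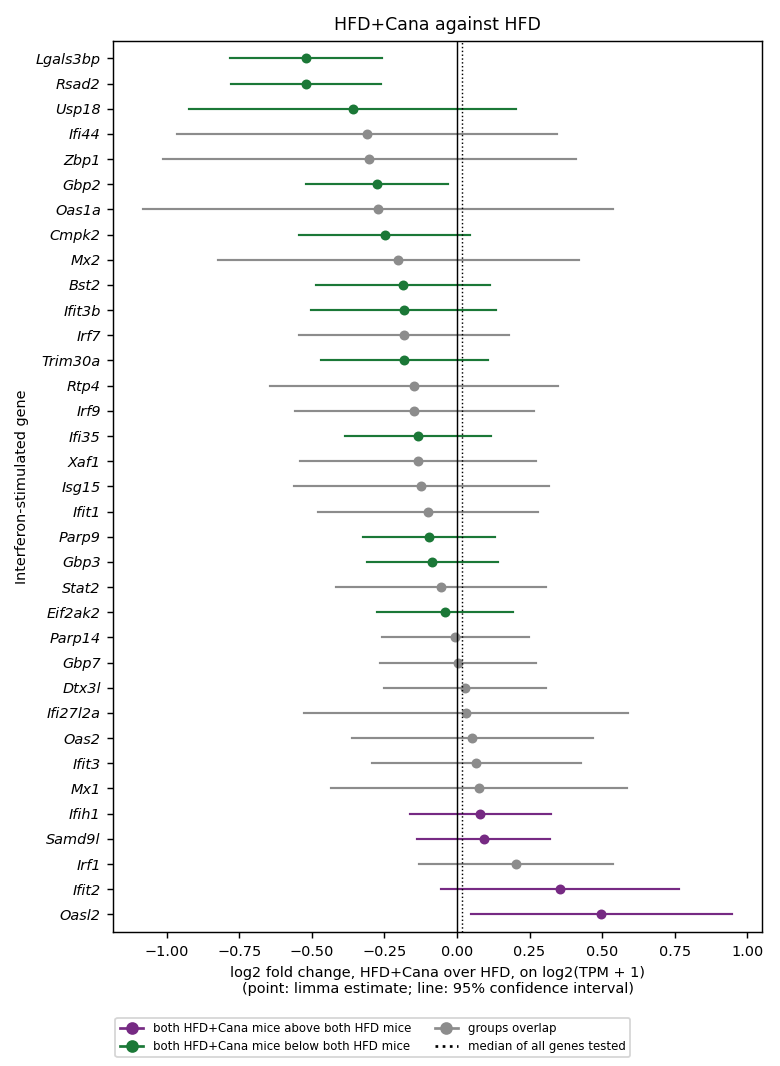
log2 fold change of HFD+Cana over HFD on log2(TPM + 1) for the 35 genes tested, with the limma estimate as a point and its 95% confidence interval as a line. Purple marks genes with both HFD+Cana mice above both HFD mice, green those with both below, and grey those whose groups overlap. The estimates run from -0.52 for Lgals3bp to 0.50 for Oasl2, and the intervals of Lgals3bp, Rsad2, Gbp2 and Oasl2 leave out 0 before adjustment for the number of genes.

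Among the transcription factors no gene separated the groups. Irf7, the factor that amplifies type I interferon production, measured 24.7 and 20.5 TPM in HFD+Cana mice against 27.8 and 23.7 TPM in HFD mice, and its log2 fold change was -0.18 ± 0.14 (SE). Irf9 and Stat2, which encode parts of ISGF3, had log2 fold changes of -0.15 and -0.05. Irf1, which responds to both types of interferon, measured 53.9 and 47.7 TPM in HFD+Cana mice against 40.0 and 48.2 TPM in HFD mice (log2 fold change 0.20). All 4 overlapped between the groups, and the fold change of Irf7 was -0.053 without HFD+Cana replicate 2 and that of Irf1 was 0.071 without HFD replicate 1. Irf7, Irf9 and Stat2 were each highest in HFD replicate 1 and lowest in HFD+Cana replicate 2.

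Isg15, a ubiquitin-like protein that is joined to other proteins, measured 15.4 and 12.01 TPM in HFD+Cana mice against 16.5 and 13.5 TPM in HFD mice, and the groups overlapped. Usp18, which removes ISG15 and restrains the receptor at IFNAR2, measured 3.50 and 4.05 TPM in HFD+Cana mice against 6.298 and 4.12 TPM in HFD mice. Its groups do not overlap, but HFD replicate 2 lay just above HFD+Cana replicate 2, and the log2 fold change of -0.36 ± 0.21 (SE) was -0.10 without HFD replicate 1. The IFIT family, which binds foreign RNA ends and sits in a cluster on chromosome 19, did not move as one. Ifit2 was higher in both HFD+Cana mice, at 11.98 and 14.2 TPM, against 8.88 and 11.2 TPM in HFD mice (log2 fold change 0.36 ± 0.16, adjusted p = 0.50 in limma; 0.20 without HFD replicate 1). Ifit3b was lower in both, at 6.44 and 6.92 TPM, against 7.21 and 8.25 TPM in HFD mice (log2 fold change -0.18 ± 0.12). Ifit1 and Ifit3 overlapped, with log2 fold changes of -0.10 and 0.07. Reads of Ifit3 and Ifit3b are hard to assign, since 31.7% of the 100-base stretches of Ifit3 transcripts also occur in Ifit3b (27.4% the other way), so the direction of either alone is uncertain.

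The oligoadenylate synthetases make the short nucleotide chains that switch on RNase L. Oasl2, a member of this family, had the highest fold change of the list (chr5:114896936-114912234, plus strand). It measured 30.8 and 34.8 TPM in HFD+Cana mice against 26.8 and 19.6 TPM in HFD mice, an HFD+Cana mean of 1.42 times the HFD mean. The lower HFD+Cana mouse was above the higher HFD mouse, with a log2 fold change of 0.50 ± 0.17 (SE, n = 2 each; interval 0.05 to 0.95) and an adjusted p of 0.441 in limma. Without any 1 mouse it ran from 0.28 to 0.71. Oas1a, Oas2 and Oas3 overlapped, with log2 differences of -0.27, 0.05 and -0.16. Oas1a measured 11.6 and 6.98 TPM in HFD+Cana mice against 13.9 and 8.87 TPM in HFD mice, so that replicate 1 exceeded replicate 2 in both groups by more than the groups differed. Of its 100-base stretches 40.9% also occur in Oas1g, so reads of the copy may be counted in its level or the reverse. Shared stretches made up 9.28% of Rtp4, 4.41% of Trim30a and 3.29% of Ifit1, and 562 of the 5612 stretches of Gbp7 were shared as well.

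Of the nucleic acid sensors, Ifih1 (the RNA sensor MDA5) measured 12.2 and 12.8 TPM in HFD+Cana mice against 11.9 and 11.7 TPM in HFD mice, a log2 fold change of 0.08 ± 0.09 (SE). Eif2ak2 (the RNA-activated kinase PKR) measured 13.4 and 13.8 TPM in HFD+Cana mice against 13.8 and 14.1 TPM in HFD mice, a log2 fold change of -0.04 ± 0.09. Both separated the groups by less than their standard error. Zbp1, a sensor of Z-form nucleic acids that can start necroptosis, measured 10.3 and 6.44 TPM in HFD+Cana mice against 12.3 and 8.60 TPM in HFD mice and overlapped.

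Among the interferon-induced GTPases, Gbp2, which coats the membranes of pathogens in cells (on chromosome 3), measured 56.2 and 53.0 TPM in HFD+Cana mice against 69.8 and 62.9 TPM in HFD mice. Neither HFD+Cana mouse reached the lower HFD mouse. The HFD+Cana mean was 0.823 of the HFD mean, with a log2 fold change of -0.28 ± 0.09 (SE; interval -0.52 to -0.03) and an adjusted p of 0.434 in limma. Gbp3 measured 17.6 and 17.6 TPM in HFD+Cana mice against 18.3 and 19.2 TPM in HFD mice (log2 fold change -0.09 ± 0.09). Gbp7, Mx1 and Mx2 overlapped, with log2 fold changes of 0.0032, 0.076 and -0.20. The sign of Gbp7 and of Mx1 turned under quantile normalization. The MX genes block viruses early in infection, but both averaged under 2 TPM, and C57BL/6 mice carry a deletion in Mx1 that leaves no working protein. Of the PARP9 group on chromosome 16, an ADP-ribosylation and ubiquitylation complex that enhances interferon signalling, Parp9 measured 43.2 and 46.4 TPM in HFD+Cana mice against 46.4 and 49.5 TPM in HFD mice. The log2 fold change of Parp9 was -0.10 ± 0.09, with the higher HFD+Cana mouse just under the lower HFD mouse. Its partners Dtx3l and Parp14 overlapped, at 0.03 and -0.01.

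Of the other effectors, Bst2, which encodes tetherin, a membrane protein that holds budding virus at the cell surface, measured 109 and 103 TPM in HFD+Cana mice against 132 and 111 TPM in HFD mice (log2 fold change -0.19 ± 0.11). Ifi35 measured 48.4 and 46.4 TPM in HFD+Cana mice against 55.5 and 49.0 TPM in HFD mice (log2 fold change -0.14 ± 0.10). Trim30a, a TRIM protein that dampens Toll-like receptor signalling, measured 22.1 and 19.2 TPM in HFD+Cana mice against 24.4 and 22.6 TPM in HFD mice (log2 fold change -0.18 ± 0.11). All 3 lay below HFD in both HFD+Cana mice, with a gap that was narrow in each. Without HFD replicate 1 the fold changes of Bst2 and Ifi35 were -0.060 and -0.048, and without HFD+Cana replicate 2 that of Trim30a was -0.082. Samd9l, which restrains protein synthesis, lay the other way, at 20.0 and 18.7 TPM in HFD+Cana mice against 18.1 and 18.1 TPM in HFD mice (log2 fold change 0.09 ± 0.09). Ifi44, Xaf1, Rtp4 and Ifi27l2a overlapped, with log2 fold changes of -0.31, -0.13, -0.15 and 0.03. Each of Ifi44, Xaf1 and Rtp4 was highest in HFD replicate 1, and the other 3 mice lay close together.

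The plot of each mouse's deviation shows that the 4 mice did not form 2 even groups over the list. HFD replicate 1 was the highest mouse in 20 of the 36 genes, HFD replicate 2 in 8, HFD+Cana replicate 1 in 5 and HFD+Cana replicate 2 in 3. HFD+Cana replicate 2 was the lowest in 17, HFD replicate 2 in 8, HFD replicate 1 in 6 and HFD+Cana replicate 1 in 5. Replicate 1 was above replicate 2 in 24 genes in HFD+Cana (55.9% of all genes tested were) and in 23 genes in HFD (54.7% of all genes were). The median fold change of the list, -0.13, moved with single mice: leaving out HFD+Cana replicate 1 gave -0.17 and leaving out HFD+Cana replicate 2 gave -0.054, while in HFD it was -0.01 without replicate 1 and -0.23 without replicate 2. Leaving out HFD replicate 2 raised the count of genes below HFD in every HFD+Cana mouse to 26, and leaving out HFD+Cana replicate 1 raised it to 22. With 3 mice groups separate more readily, and 34.5% and 38.3% of all genes were then below HFD. The count above HFD was 10 when HFD replicate 1 was left out (38.2% of all genes). HFD replicate 1 was also the lowest mouse in 2 other measures, and in the second HFD+Cana replicate 1 stood apart on the high side. The number of genes with any TPM was 21068 and 21101 in HFD+Cana mice against 19884 and 21129 in HFD mice, and red blood cell markers summed to 14391 and 6673 TPM in HFD+Cana mice against 1756 and 5940 TPM in HFD mice. The part of these measures in the levels of either mouse was not tested.

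**Figure D3:**
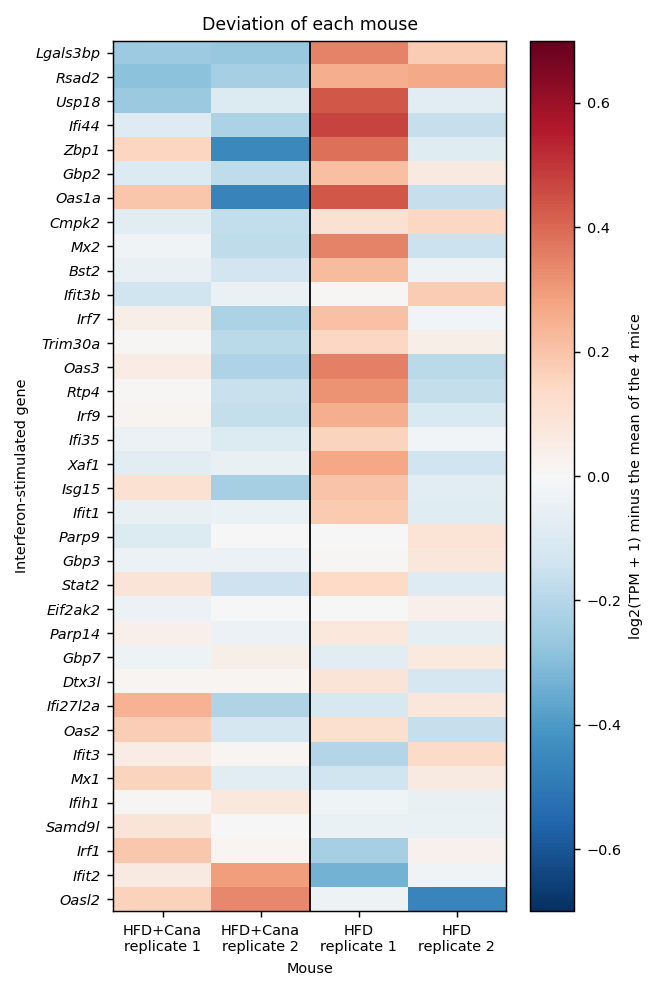
log2(TPM + 1) of each mouse minus the mean of the 4 mice, for the 36 genes in order of the difference between the groups, with HFD+Cana mice on the left and HFD mice on the right of the line. Red is above and blue below the mean of the 4 mice. Lgals3bp and Rsad2 at the top are blue in both HFD+Cana mice and red in both HFD mice, while HFD replicate 1 is the highest of the 4 mice in 20 of the 36 genes.

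The fold changes were also set beside the ISRE cores of the promoter windows. The 15 genes with a core had a median log2 difference of -0.12 and ran from -0.52 to 0.08, and in 7 of them both HFD+Cana mice were below HFD (19.8% of all genes tested were), in 1 both were above (24.3% of all genes were). The 12 genes without one had a median of -0.13 and ran from -0.52 to 0.50, with 3 below and 3 above. No difference between these small groups was tested. The 2 genes with the highest fold changes, Oasl2 and Ifit2, had no core in their windows.

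Upstream of these genes, almost no interferon RNA was measured. Of 21 entries for 20 type I and type III interferon genes, 19 were listed at 0 TPM in all 4 mice and none reached a mean of 1 TPM. Ifng, the type II interferon, was at 0.06 and 0.06 TPM in HFD+Cana mice and at 0 and 0.245 TPM in HFD mice. Among 10 receptor and kinase genes 9 were tested, and 0 passed an adjusted p of 0.05 in limma. At an unadjusted limma p under 0.05, 0 were higher and 1 lower, against 5.32% and 5.45% of all genes tested. Ifnar2, a chain of the type I receptor, measured 163 and 154 TPM in HFD+Cana mice against 199 and 168 TPM in HFD mice (log2 fold change -0.20, or -0.080 without HFD replicate 1). Jak2, a kinase of the type II receptor, measured 23.13 and 25.4 TPM in HFD+Cana mice against 19.6 and 21.4 TPM in HFD mice (log2 fold change 0.23). Ifnar1, Ifngr1, Ifngr2, Il10rb, Jak1 and Tyk2 had log2 fold changes between -0.08 and 0.09, and Ifnlr1 was under 1 TPM. Of 16 sensors and adaptors upstream of interferon, 0 passed an unadjusted p under 0.05 in limma, 2 lay above HFD in both HFD+Cana mice (12.5%, against 24.3% of all genes) and 1 below (6.25%, against 19.8%).

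Of 12 entries listed as inhibitors of interferon signalling, 5 lay above HFD in both HFD+Cana mice (41.7%, against 24.3% of all genes tested) and 1 below (8.33%, against 19.8%). Isg20, 1 of the 5, is itself an interferon response gene and is counted again in the alpha/beta list below. The 5 are therefore not a count of inhibitors alone. Of the 12 entries, Socs3, which blocks JAK kinases after cytokine stimulation, was the only 1 at an unadjusted limma p under 0.05. Over all genes tested, 5.32% were higher at that p. Socs3 measured 12.3 and 7.33 TPM in HFD+Cana mice against 5.68 and 5.61 TPM in HFD mice, with a log2 fold change of 0.66 ± 0.24 (SE) and an adjusted p of 0.453 in limma. HFD+Cana replicate 1 was the higher mouse, and without it the log2 fold change was 0.33.

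Of 64 other interferon alpha/beta response genes tested, 0 passed an adjusted p of 0.05 in limma. At an unadjusted limma p under 0.05, 2 were higher and 4 lower, against 5.32% and 5.45% of all genes tested. In 12 both HFD+Cana mice lay above HFD (18.8%, against 24.3% of all genes) and in 14 below (21.9%, against 19.8%), shares near those of any genes. Their median log2 fold change was -0.01, and it turned with single mice, at 0.10 when HFD+Cana replicate 2 was left out and -0.09 when HFD replicate 2 was. Among those of smallest p, 3 are given here, and they went both ways. Apol9a, an apolipoprotein L gene with a close copy, was at 2.82 and 2.45 TPM in HFD+Cana mice and 1.21 and 0.895 TPM in HFD mice (log2 fold change 0.83 ± 0.19). Ly6a, which encodes the surface protein Sca-1 and also marks adipose progenitors, was at 286 and 281 TPM in HFD+Cana mice and 200 and 233 TPM in HFD mice (0.39 ± 0.11). Ifi27, a relative of Ifi27l2a, was at 472 and 532 TPM in HFD+Cana mice and 667 and 636 TPM in HFD mice (-0.38 ± 0.11). Each of the 3 separated the groups and had an adjusted p of 0.283 or more in limma.

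The interferon gamma response genes, a list of targets of the type II pathway, came next. Of 37 tested, 0 passed an adjusted p of 0.05 in limma. At an unadjusted limma p under 0.05, 5 were lower and 0 higher, against 5.45% and 5.32% of all genes tested. In both HFD+Cana mice 18 lay below and 3 above HFD (48.6% and 8.11%, against 19.8% and 24.3% of all genes). Their median log2 fold change was -0.11 and was -0.042 without HFD+Cana replicate 2. Gbp6, a guanylate-binding protein, measured 17.96 and 15.2 TPM in HFD+Cana mice against 31.2 and 22.3 TPM in HFD mice in the more abundant of its 2 entries (log2 fold change -0.65 ± 0.19, adjusted p = 0.375 in limma). Tapbp, which loads peptides onto MHC class I molecules, measured 242 and 246 TPM in HFD+Cana mice against 323 and 288 TPM in HFD mice (log2 fold change -0.32 ± 0.10). Psmb10, a subunit of the immunoproteasome, measured 51.2 and 41.6 TPM in HFD+Cana mice against 62.4 and 58.5 TPM in HFD mice (log2 fold change -0.38 ± 0.13). These genes serve antigen processing and cell-autonomous defence. The lists are not separate sets: Tapbp and Cxcl10, among others, belong to this list and to the alpha/beta list alike. Trim25, Dhx58 and Ddx58 stand among the sensors and the alpha/beta genes, Adar and Isg20 among the inhibitors and the alpha/beta genes, and Socs1 among the inhibitors and the gamma genes.

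**Figure D4:**
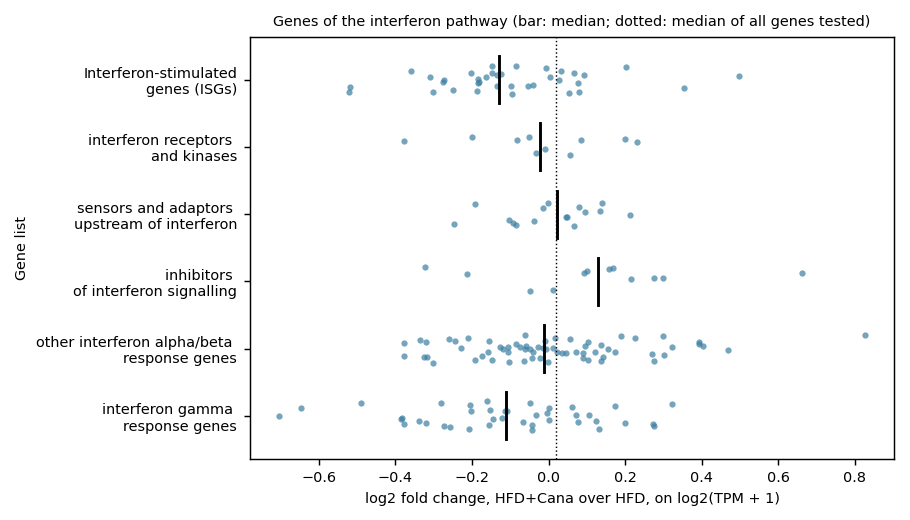
log2 difference of HFD+Cana over HFD on log2(TPM + 1) for each gene (points) of the 36 interferon-stimulated genes (ISGs) and of 5 other lists of the interferon pathway, with the median of each list as a bar and the median of all genes tested as a dotted line. The medians are -0.13 for the 36 genes, -0.02 for receptors and kinases, 0.02 for sensors, 0.13 for inhibitors, -0.01 for other alpha/beta genes and -0.11 for gamma genes. Some genes stand in more than 1 of the 5 other lists.

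In bulk tissue, fewer cells of a type and less RNA per cell cannot be told apart. The tissue label was borne out by the adipocyte markers, which summed to 44803 and 55013 TPM in HFD+Cana and to 44621 and 47963 TPM in HFD. Without Fabp4, the most abundant, they summed to 17661 and 22539 TPM in HFD+Cana and to 16961 and 19036 TPM in HFD, and both sums overlapped. Of 10 adipocyte markers tested, 4 lay below HFD in both HFD+Cana mice (40%, against 19.8% of all genes tested) and 1 above (10%, against 24.3%). Macrophage markers summed to 5289 and 3034 TPM in HFD+Cana and to 4341 and 3042 TPM in HFD, which puts replicate 1 above replicate 2 in both groups, as in many of the genes described. Since 1 abundant marker can carry a sum, each sum was also taken without its most abundant marker, an addition made after the sums were seen. Endothelial markers summed to 973 and 1124 TPM in HFD+Cana and to 1206 and 1244 TPM in HFD. Of 8 tested, 3 lay below HFD in both HFD+Cana mice (37.5%, against 19.8% of all genes tested) and 0 above. Without Egfl7 the endothelial sum was 733 and 839 TPM in HFD+Cana and 927 and 905 TPM in HFD. Markers of NK cells, which make interferon gamma as T cells do, summed to 12.3 and 10.7 TPM in HFD+Cana and to 14.6 and 13.96 TPM in HFD. Of the 9 NK markers 5 averaged 1 TPM or more, and 2 of these 5 lay below HFD (40%, against 19.8% of all genes tested) and 0 above. Both the endothelial and the NK sum were lower in each HFD+Cana mouse, and the NK sum stayed so without Nkg7 (9.12 and 6.77 TPM in HFD+Cana, 10.7 and 9.64 TPM in HFD). Gzma, 1 of the 2 below, measured 3.37 and 2.19 TPM in HFD+Cana and 4.11 and 4.28 TPM in HFD, and the NK sum was not taken without it. The paper counted cells, not RNA, by flow cytometry and reported more NK cells and more CD8+ T cells in gWAT after canagliflozin. Its figure caption also marks macrophages as different between HFD and HFD+Cana, without giving the direction in words. In the RNA, Cd8a and Cd8b1 were under 1 TPM in each of the 4 mice. T cell markers summed higher in HFD+Cana, at 30.2 and 30.4 TPM against 25.4 and 27.3 TPM in HFD, with 2 of 7 above (28.6%, near the 24.3% of all genes tested) and 0 below. That difference was carried by Cd2, without which the T cell sum was 19.7 and 20.3 TPM in HFD+Cana and 18.9 and 20.9 TPM in HFD. Monocyte and neutrophil markers summed to 119 and 84.6 TPM in HFD+Cana and to 196 and 132 TPM in HFD, with 2 of 8 below (25%, near the 19.8% of all genes tested) and 0 above. This sum too rested on 1 gene, S100a8, and without it the groups overlapped (105 and 62.1 TPM in HFD+Cana, 79.4 and 77.9 TPM in HFD). Markers of B and plasma cells summed to 488 and 368 TPM in HFD+Cana and to 720 and 655 TPM in HFD, nearly all of it Ighm. Without Ighm the order turned, with 24.5 and 13.9 TPM in HFD+Cana and 7.85 and 8.75 TPM in HFD. Conventional dendritic cell markers summed to 72.7 and 61.3 TPM in HFD+Cana and to 69.6 and 69.6 TPM in HFD, with 0 of 7 above and 1 below. Of 10 plasmacytoid dendritic cell markers, a cell type known for making type I interferon, 6 averaged 1 TPM or more, Bst2 of the present list among them. The 10 markers summed to 374 and 308 TPM in HFD+Cana and to 457 and 335 TPM in HFD, which overlapped. That overlap rested on Clec10a, without which the sum was 195 and 184 TPM in HFD+Cana and 230 and 204 TPM in HFD. Bst2 made up 109 and 103 TPM of this in HFD+Cana and 132 and 111 TPM in HFD, so the sum is not independent of the present list. The sum was not taken without Bst2. Of the 6 tested, 3 lay below HFD in both HFD+Cana mice, Bst2 among them (50%, against 19.8% of all genes tested), and 0 above. Siglech, which is typical of these cells, was at 1.27 and 0.789 TPM in HFD+Cana and 0.576 and 0.839 TPM in HFD.

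Markers of other tissues and of other cells of the depot were measured as well. Beside the counts below, 24.3% of all genes tested lay above HFD in both HFD+Cana mice and 19.8% lay below. Mesothelial markers lay above HFD in both HFD+Cana mice in 10 of 10 genes, with sums of 176 and 293 TPM in HFD+Cana and 54.9 and 40.7 TPM in HFD. Hepatocyte markers lay above HFD in 9 of 10 genes, and 4 of them passed an adjusted p of 0.05 in limma, out of 6 genes that passed in the whole table. Trf, the tenth, which fat also expresses at a high level, hid this in the sum (2927 and 4305 TPM in HFD+Cana, 3409 and 3270 TPM in HFD). Without Trf the other 9 summed to 143 and 193 TPM in HFD+Cana and to 6.33 and 11.3 TPM in HFD. Adipose progenitor markers lay above HFD in 5 of 8 genes, with sums of 2809 and 2320 TPM in HFD+Cana and 2026 and 2084 TPM in HFD that overlapped without Dcn (1657 and 946 TPM in HFD+Cana, 1154 and 1091 TPM in HFD). Skeletal muscle markers summed to 113 and 197 TPM in HFD+Cana and to 244 and 278 TPM in HFD, with 4 of 8 below and 0 above. The part of any of these markers in the levels of the interferon-stimulated genes was not tested.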

How the data were processed

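Polyadenylated RNA of gWAT from 4 mice was sequenced with a stranded kit. The authors ran the nf-core/rnaseq pipeline, whose Salmon step gives the deposited TPM values. GRCm38, mm10 and R 4.3.2 stand in the submitters' processing notes, with no annotation release given in the sources used here. Columns were matched to samples by name. Gene IDs were looked up in GENCODE M21 (45143 of 45706 found) for positions, and 27 gene names that a spreadsheet had turned into dates were restored. The 13788 genes averaging 1 TPM or more were fitted as log2(TPM + 1) in limma 3.58.1 (R 4.3.3, lmFit and eBayes, trend on) on the group alone. Benjamini-Hochberg adjustment ran over all these genes, with a threshold of 0.05 and confidence intervals at 95%. The script was tested on simulated data. TPM keep no depth and are not counts, so count tests were left out. The labels say only that replicates are separate samples. Each p-value sets a difference between groups of 2 samples against a variance that eBayes moderates toward the trend over all genes tested. The study names no test for its sequencing data. Transcripts were compared in stretches of 100 bases for shared sequence. The genes and lists were chosen with earlier results of these data known. Named were all 36 genes, with values per mouse for those whose groups did not overlap and the 5 of highest mean, and in the other lists up to 4 genes of smallest p. A further gene is not reported here, though list counts and medians still hold it. Values per mouse of Irf1, Irf7, Isg15, Oas1a, Zbp1, Ifnar2 and Jak2 were added after they were seen. Alternatives were other pseudocounts (0.1, 5), other filters (none, 5 TPM), other scalings (quantile, median of ratios, mitochondrial genes removed), eBayes untrended or robust, a replicate block, and leaving out each mouse. Tables and plots came from Python 3.11.15 with pandas 2.3.3, matplotlib 3.10.9 and scipy 1.17.1.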

Additional observations from a re-analysis of the deposited data

How the results depend on the processing

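None of the 36 genes passed an adjusted p of 0.05 in limma under any alternative, and the lowest was 0.171. Of 486 values of single genes of the list under the alternatives, 457 kept their direction, and 18 of the 35 genes tested kept it in all. The sign turned for Mx1 (-0.020) and Gbp7 (-0.013) under quantile normalization, Gbp7 under median-of-ratios scaling (-0.020), Parp14 without mitochondrial genes (8e-04) and Ifngr1 under quantile normalization (0.038). The cause was not tested. Over the fits that leave out 1 mouse, log2 fold changes crossed 0 for Irf9 (-0.33 to 0.036), Stat2 (-0.17 to 0.061), Isg15 (-0.29 to 0.046), Ifit1 (-0.23 to 0.034), Ifit3 (-0.10 to 0.24), Oas1a (-0.60 to 0.060), Oas2 (-0.091 to 0.20), Zbp1 (-0.60 to 4e-04), Mx1 (-0.042 to 0.19), Mx2 (-0.45 to 0.047), Gbp7 (-0.068 to 0.075), Dtx3l (-0.075 to 0.13), Parp14 (-0.074 to 0.062), Rtp4 (-0.39 to 0.093), Xaf1 (-0.34 to 0.071), Ifi44 (-0.63 to 0.0057), Ifi27l2a (-0.20 to 0.26), Ifngr1 (-0.093 to 0.025), Ifngr2 (-0.17 to 0.35), Ifnar1 (-0.18 to 0.014), Il10rb (-0.13 to 0.24) and Tyk2 (-0.081 to 0.065). Others kept their sign but moved by over 1.5 times: Irf1 (0.071 to 0.34), Irf7 (-0.31 to -0.053), Usp18 (-0.61 to -0.10), Ifit2 (0.20 to 0.51), Ifit3b (-0.27 to -0.098), Oasl2 (0.28 to 0.71), Ifih1 (0.048 to 0.11), Eif2ak2 (-0.061 to -0.020), Gbp3 (-0.12 to -0.051), Parp9 (-0.15 to -0.047), Bst2 (-0.31 to -0.060), Samd9l (0.048 to 0.14), Trim30a (-0.28 to -0.082), Ifi35 (-0.22 to -0.048), Ifnar2 (-0.32 to -0.080), Jak1 (-0.089 to -0.014), Socs3 (0.33 to 1.0004), Gbp6 (-0.88 to -0.41) and Psmb10 (-0.53 to -0.24). The medians ran from -0.091 to 0.10 for the alpha/beta list and from -0.10 to -0.042 for the gamma list. The lone mouse of a group was there assumed to vary like the others. Groups of any gene separate more readily once 1 mouse is left out. Over these fits 36% to 43.6% of all genes tested were higher without overlap, against 24.3% with all mice. Lower without overlap were 30% to 38.3%, against 19.8% with all mice. Larger counts without overlap in these fits are therefore not particular to the interferon lists. The count of the 36 genes at an unadjusted p under 0.05 ran over these fits from 0 to 1 higher and from 2 to 6 lower (6 without HFD replicate 2), and the count whose groups did not overlap from 4 to 10 higher and from 12 to 26 lower. For the alpha/beta list these ranges were 1 to 5 higher and 1 to 3 lower at that p, and 13 to 28 higher and 18 to 31 lower without overlap. For the gamma list they were 0 to 3 higher and 1 to 5 lower, and 4 to 10 higher and 20 to 24 lower. Without a filter, 0 of the 36 genes were higher at that p, and 1 gamma gene was higher and 2 were lower. With a mean of at least 5 TPM, 1 alpha/beta gene was higher.

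The labels say nothing of a pairing by replicate number. Deviations of same-numbered mice correlated at 0.18 over the genes tested and at 0.33 over the 36 genes, and with 2 pairs this does not settle it. With the replicate number as a block, 2 of the 36 genes were higher and 5 lower at an unadjusted p under 0.05 in limma, and 8 gamma genes were lower. In that fit 7.72% of all genes tested were higher and 7.96% lower. Depth is unknown for TPM, so genes of low level, such as Oas3, Mx1 and Mx2, have an unknown counting error, and 2 mice per group limit every value.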
